A study of Mus musculus with 8 samples.

Results

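Kidney cells of ADPKD mice treated with the CREB inhibitor 666-15 were compared here with the same lectin-selected cells of untreated wild-type (WT) mice, to ask how far the treated cystic cells remained from the healthy state. The comparison takes 4 of the 8 libraries of the series: 2 from ADPKD mice given 666-15 and 2 from WT mice given vehicle (DMSO). The labels give each library as poly(A) RNA from freshly isolated cells that bound Dolichos biflorus agglutinin (DBA), but their extraction text also speaks of whole kidney RNA, and which of these was sequenced is not settled by the labels. The other 4 libraries (2 from ADPKD mice on vehicle and 2 from WT mice on 666-15) served to estimate the spread and to place each gene. The dose was 5 mg/kg of 666-15, or vehicle, once a day in blocks of 5 dosing days and 2 days of rest, begun on postnatal day 11 and kept up for 3 weeks. The mutated gene and allele, the strain and the number of mice behind a library are not given in the labels. Separate mice behind the 2 libraries of each group are not stated, so the p-values measure the spread between these libraries alone, which may be technical. Of 55304 gene rows in the count table, 17440 had enough counts to be tested. Genotype and treatment both differ between these groups, so their parts in a difference cannot be told apart from this comparison alone.

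Autosomal dominant polycystic kidney disease (ADPKD) is a disorder in which tubule segments widen into fluid-filled cysts, most often after loss of polycystin function. Cyclic AMP is known to drive fluid secretion and proliferation in cyst epithelium, and CREB (the product of Creb1) is a transcription factor activated by the cAMP-dependent kinase PKA. The compound 666-15 blocks transcription driven by CREB. The DBA lectin binds sugars on collecting duct cells, from which many cysts arise, so DBA selection is used to enrich for that segment and for cyst lining cells.

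The 4 compared libraries held 15552406 to 18995629 counts, and all 8 held 15108793 to 19702638. One WT 666-15 library had 17688 Xist counts and 0 Ddx3y counts, while the other 7 had at most 8 Xist counts, so sex is mixed within that group but not within the 4 compared libraries. The lectin label was checked against segment markers. Principal cell markers of the collecting duct summed to 0.179% and 0.231% of counts in the WT vehicle libraries and to 0.321% and 0.351% in the treated ADPKD libraries. Proximal tubule markers summed to 2.35% and 2.05% in the WT vehicle libraries, above the principal cell markers, and to 0.0651% and 0.0641% in the treated ADPKD libraries. WT libraries on 666-15 lay between, at 0.83% and 0.86%. The reference group therefore carried much proximal tubule RNA for a fraction named after collecting duct binding, which touches every statement below on distance from WT. In bulk RNA, fewer cells of a type and less RNA per cell cannot be told apart.

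Treated ADPKD cells stayed far from untreated WT cells. With edgeR's quasi-likelihood test at an adjusted p below 0.05, 9649 of 17440 genes (55.3%) differed, 4989 (28.6%) higher and 4660 (26.7%) lower in treated ADPKD. With a difference of at least 2-fold as well, 5418 genes (31.1%) remained, of which 2226 (12.8%) were higher and 3192 (18.3%) lower. The balance of higher to lower calls turned under another scaling (4662 higher and 4893 lower with RLE factors, the scaling of DESeq2), so no excess in either direction is stated. For the same WT vehicle libraries against ADPKD on vehicle, 9842 genes (56.4%) were called (28.8% higher and 27.6% lower), 5789 of them (33.2%) at least 2-fold (14.6% higher and 18.6% lower). The libraries of the compared groups did not overlap for 14120 genes (81%).

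The distance between libraries was also measured as the root mean square of log2 differences over all tested genes. It was 0.462 between the WT vehicle replicates and 0.507 between the treated ADPKD replicates. Treated ADPKD libraries lay 1.425 to 1.467 from the WT vehicle libraries, against 1.575 to 1.675 for ADPKD libraries on vehicle. These ranges did not overlap, and each pair lay further apart than any replicates did. The median absolute difference overlapped between them, at 0.709 to 0.734 with 666-15 and 0.724 to 0.762 with vehicle. WT libraries on 666-15 lay 0.807 to 0.880 from WT on vehicle, and treated ADPKD libraries lay closer to them (1.173 to 1.233) than to WT on vehicle.

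**Figure D1:**
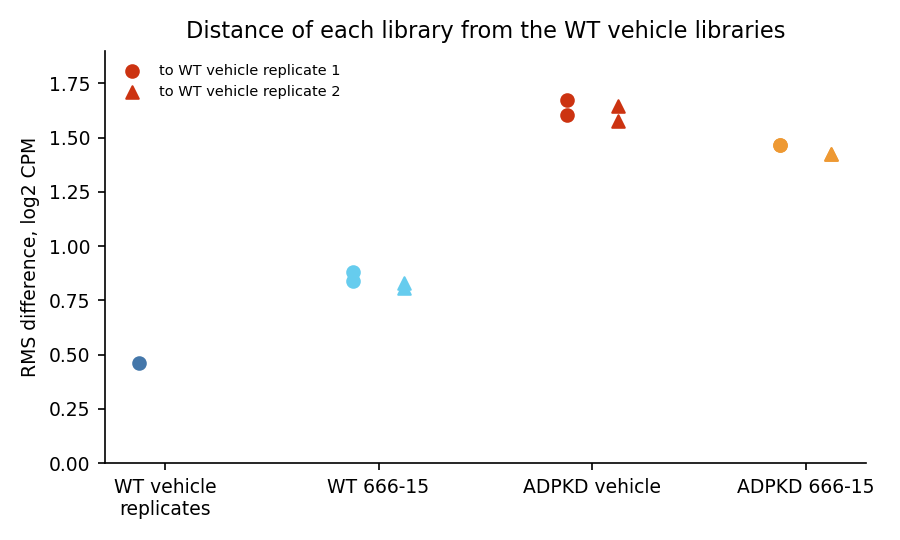
Distance of each library to the 2 WT vehicle libraries, as the root mean square of log2 differences over the tested genes; each point is 1 pair of libraries. The treated ADPKD libraries (1.425 to 1.467) sit below the ADPKD vehicle libraries (1.575 to 1.675) and above the WT libraries on 666-15 (0.807 to 0.880).

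To sort genes by where treatment left them, the 5789 genes that differed at least 2-fold between ADPKD and WT on vehicle were classed by their level in treated ADPKD cells. A gene was short of the WT level when treated ADPKD still differed from WT in the same direction. It was at the WT level when no difference was called and the 95% interval of the log2 fold change lay within 2-fold either way. It was past the WT level when the difference was called in the opposite direction. The rest were undecided, since their interval reached beyond 2-fold. These classes draw on 2 comparisons that share the WT vehicle libraries, so the counts are descriptive.

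By this rule 4164 genes (71.9%) were short of the WT level, 482 (8.33%) were at it, 106 (1.83%) were past it and 1037 (17.9%) were undecided. The undecided genes were mostly scarce, with a median of 1.37 CPM (read counts scaled to library size, with TMM factors). Among the 3529 genes with a mean of at least 5 CPM, the shares were 83.6% short, 11.7% at, 1.93% past and 2.75% undecided. Of the 2549 genes higher in ADPKD on vehicle, 63.9% were short and 8% at the WT level. Of the 3240 genes lower in ADPKD on vehicle, 78.2% were short and 8.58% at it. Of the short genes, 1366 differed between ADPKD on 666-15 and on vehicle in the direction of WT, 2387 had no call between them, and 411 had moved further from WT, beside 7224 genes (41.4%; 22.3% higher and 19.1% lower) called in that comparison over all genes. Without the WT 666-15 library of the other sex, 4211 genes were short, 475 at and 116 past the WT level. A further 414 genes had no call on vehicle with a 95% interval wholly within 2-fold of WT, and were called at least 2-fold off with 666-15, 193 higher and 221 lower. With a trend on GC content removed, 259 of these 414 genes (62.6%) kept their class, as did 302 of the 482 at the WT level (62.7%). At the edge of the call, Bin3 had an adjusted p of 0.0496 and Nxt2 of 0.0502. At the edge of the 2-fold bound, the interval of Gm9843 reached 0.996 on the log2 scale and that of Hexdc 1.001.

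**Figure D2:**
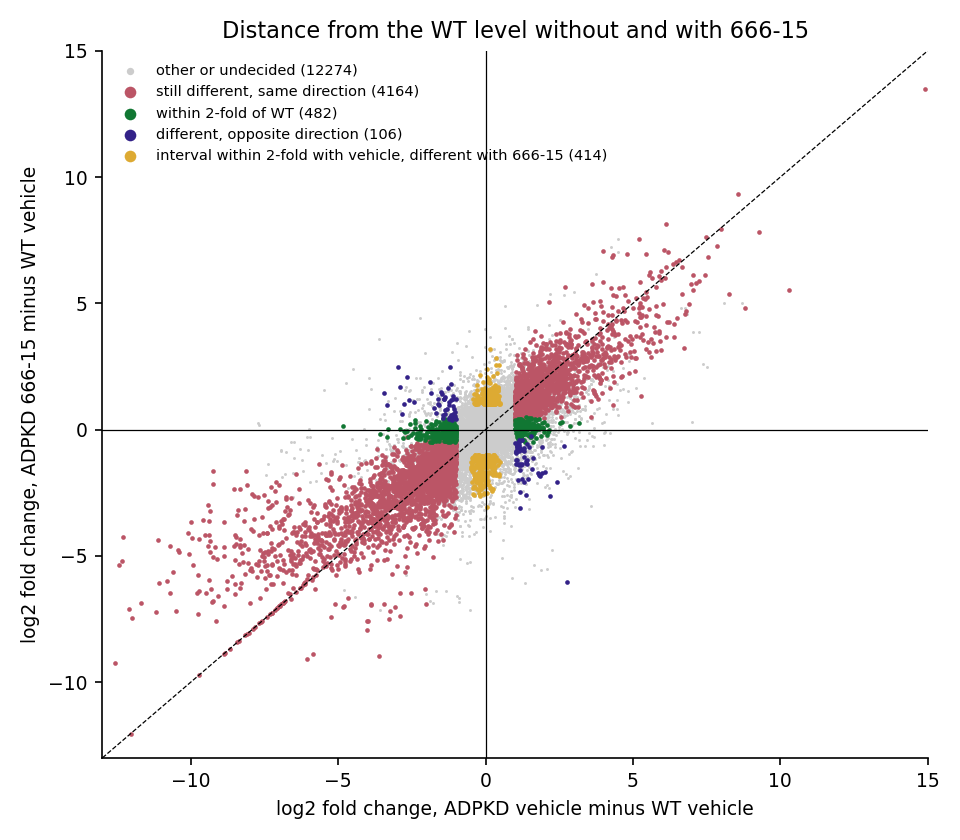
Log2 fold change of treated ADPKD against WT vehicle (vertical) against that of ADPKD vehicle against WT vehicle (horizontal), 1 point per gene coloured by class; both axes share the WT vehicle libraries. Of 5789 genes with a vehicle difference, 4164 lie short of the WT level, 482 at it and 106 past it; genes at 0 counts in a group have fitted values that depend on the prior count.

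Promoters of 4 genes that ended in different classes are shown because each holds a cAMP response element (CRE, TGACGTCA), the site CREB binds, and the drug is aimed at CREB. The stretches hold the CRE, in capitals, and up to 40 bases on either side, none past the annotated start, from RefSeq windows of 250 bases before to 50 after that start (build GRCm38.p6). Areg and Olfm2 were short of the WT level, Fscn1 was at it, and Flt1 was within 2-fold of WT on vehicle and lower with 666-15. The CRE begins 61, 64, 45 and 81 bases before the start of Areg, Olfm2, Fscn1 and Flt1.
Areg (plus strand, chr5:91139498-91139585): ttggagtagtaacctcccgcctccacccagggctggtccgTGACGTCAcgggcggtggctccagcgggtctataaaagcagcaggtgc
Olfm2 (minus strand, chr9:20727020-20727107): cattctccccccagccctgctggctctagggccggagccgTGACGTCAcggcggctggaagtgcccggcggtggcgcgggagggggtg
Fscn1 (plus strand, chr5:142960270-142960354): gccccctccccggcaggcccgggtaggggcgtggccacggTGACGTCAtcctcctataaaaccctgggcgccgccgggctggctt
Flt1 (minus strand, chr5:147726045-147726132): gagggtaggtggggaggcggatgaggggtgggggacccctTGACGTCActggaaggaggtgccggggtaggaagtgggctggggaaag
The motif reads the same on both strands. Of the tested genes, 12056 matched a RefSeq promoter and 398 of these (3.3%) held the CRE. It stood in 27 of 1166 promoters (2.32%) of short genes that were higher in ADPKD on vehicle and in 38 of 1880 (2.02%) of short genes that were lower. It stood in 9 of 137 promoters (6.57%) of genes at the WT level that had been higher, in 6 of 221 (2.71%) that had been lower, and, past the WT level, in 0 of 23 that had been higher and 1 of 47 that had been lower. For genes off WT only with 666-15, the class of Flt1, it stood in 2 of 137 (1.46%) that were higher and 3 of 157 (1.91%) that were lower. A match is a description of these letters and not of binding.

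Proximal tubule genes had the lowest median of the 36 gene lists. All 25 markers were lower in treated ADPKD, with a median log2 fold change of -5.20, against -7.13 in ADPKD on vehicle and 0.0418 over all genes tested. All 25 were classed short of the WT level. The counts in this and the other lists stand beside 28.6% higher and 26.7% lower of all genes tested. Slc34a1, the phosphate cotransporter of the proximal brush border, was at 3501 and 3967 CPM in WT, 4.46 and 3.91 CPM in ADPKD on vehicle and 41.4 and 41.9 CPM in treated ADPKD. Both treated libraries stood above the vehicle libraries and far below both WT libraries. Its log2 fold change was -6.49 ± 0.10 (SE, n = 2 libraries a group, edgeR adjusted p = 4.54e-12), and in WT mice the log2 effect of 666-15 was -1.38. Hnf4a, the transcription factor that maintains proximal tubule identity, was at 177 and 188 CPM in WT, 1.82 and 3.15 in ADPKD on vehicle and 6.38 and 5.02 with 666-15 (log2 fold change -5.00 ± 0.19). Kap, an androgen-regulated proximal tubule gene, had 4995 and 2724 CPM in WT, 1.25 and 2.28 in ADPKD on vehicle and 170 and 202 with 666-15, and still stood -4.38 ± 0.42 from WT. Pck1, the gluconeogenic enzyme and a textbook CREB target, was at 1832 and 1453 CPM in WT and at 65.4 and 71.2 in treated ADPKD, and no difference from vehicle was called within ADPKD (adjusted p = 0.684).

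Some proximal genes were not detected in ADPKD libraries. Fam151a was at 30.1 and 31.8 CPM in WT and at 0 counts in all 4 ADPKD libraries, at least 310.6-fold lower in treated ADPKD when 3 counts over the group are taken as the floor. Ugt2b38, a glucuronosyltransferase, was at 27.1 and 47.3 CPM in WT, at 0 in both ADPKD vehicle libraries and at 1.69 and 2.24 CPM with 666-15. Slc22a19, an organic anion transporter, was at 50.6 and 28.1 CPM in WT, at most 0.109 CPM on vehicle and 4.23 and 4.28 CPM with 666-15. All 3 stayed short of WT, while the last 2 had left the near-zero levels of the vehicle libraries. Both belong to gene families with close copies, so reads may be split among them.

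The thick ascending limb, which reabsorbs salt, showed the same order. Of 12 markers, 10 were lower in treated ADPKD and 2 had no call (median -3.05, against -3.92 on vehicle). Egf, the epidermal growth factor precursor made in this segment, was at 2426 and 2161 CPM in WT, 4.46 and 3.58 in ADPKD on vehicle and 11.8 and 12.1 with 666-15. It stood -7.58 ± 0.15 from WT (adjusted p = 8.11e-11), the lowest of the list. Umod, which encodes uromodulin, was at 2579 and 2753 CPM in WT, 259 and 270 on vehicle and 198 and 256 with 666-15, with no call between the ADPKD groups (adjusted p = 0.182). Cldn19, a tight junction gene, was the single member at the WT level (17.5 CPM on average in WT and 14 in treated ADPKD).

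Distal tubule, connecting tubule and intercalated cell genes split. Of 13 distal and connecting tubule markers, 10 were lower and 2 higher (median -1.72, against -2.40 on vehicle). Fxyd2, the gamma subunit of the sodium pump, had moved away from WT, from 304 and 278 CPM on vehicle to 81.3 and 91.5 with 666-15, beside 1347 and 1252 in WT (log2 fold change -3.91 ± 0.10). Slc8a1, the sodium/calcium exchanger of connecting tubule, went the other way. It was at 128 and 89.5 CPM in WT, 15.8 and 16.6 in ADPKD on vehicle and 98.9 and 102 with 666-15, where the treated libraries lay inside the WT range (-0.12 ± 0.19, 95% interval -0.54 to 0.31). Trpv5, the apical calcium channel of the same cells, was at 54 and 49.7 CPM in WT, 65.4 and 65.6 on vehicle and 245 and 246 with 666-15, further above WT than on vehicle (2.24 ± 0.10).

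Of 17 intercalated cell markers, which serve acid and base transport, 9 were lower, 1 higher and 7 had no call, and the median of -0.54 compares with -2.06 on vehicle. Slc4a1, the chloride/bicarbonate exchanger, was at 54.2 and 70.2 CPM in WT, 0.104 and 0.271 on vehicle and 10 and 14.5 with 666-15. It remained short of WT by -2.35 ± 0.19. Foxi1, the master regulator of intercalated cells, and Car2, carbonic anhydrase II, were at the WT level, with means of 38.5 and 49.5 CPM (Foxi1) and 854 and 979 CPM (Car2) in WT and treated ADPKD. Slc26a7, an anion exchanger, was at 7.07 and 7.62 CPM in WT, 0.726 and 0.706 on vehicle and 6.18 and 5.70 with 666-15, just below the WT libraries and not called. Aqp6, the intercalated cell water and anion channel, passed the WT level, at 82.8 and 93.3 CPM in WT, 13.2 and 11.6 on vehicle and 122 and 150 with 666-15 (0.63 ± 0.13, adjusted p = 0.00128). In WT mice 666-15 raised Aqp6 to 323 and 397 CPM.

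Principal cell genes were above WT in treated ADPKD. Of 14 tested markers 10 were higher, 2 lower and 2 had no call (median 0.906, against 0.582 on vehicle). Hsd11b2, the enzyme that protects the mineralocorticoid receptor from glucocorticoids, was past the WT level, at 248 and 335 CPM in WT, 107 and 127 on vehicle and 486 and 550 with 666-15 (0.83 ± 0.15). Aqp2, the vasopressin-regulated water channel, was at 276 and 412 CPM in WT and 372 and 565 in treated ADPKD; the groups overlapped and no difference was called (0.45, 95% interval -0.27 to 1.16). In WT mice 666-15 raised Aqp2 to 1543 and 2078 CPM, and the summed principal cell markers to 0.743% and 0.756% of counts.

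**Figure D3:**
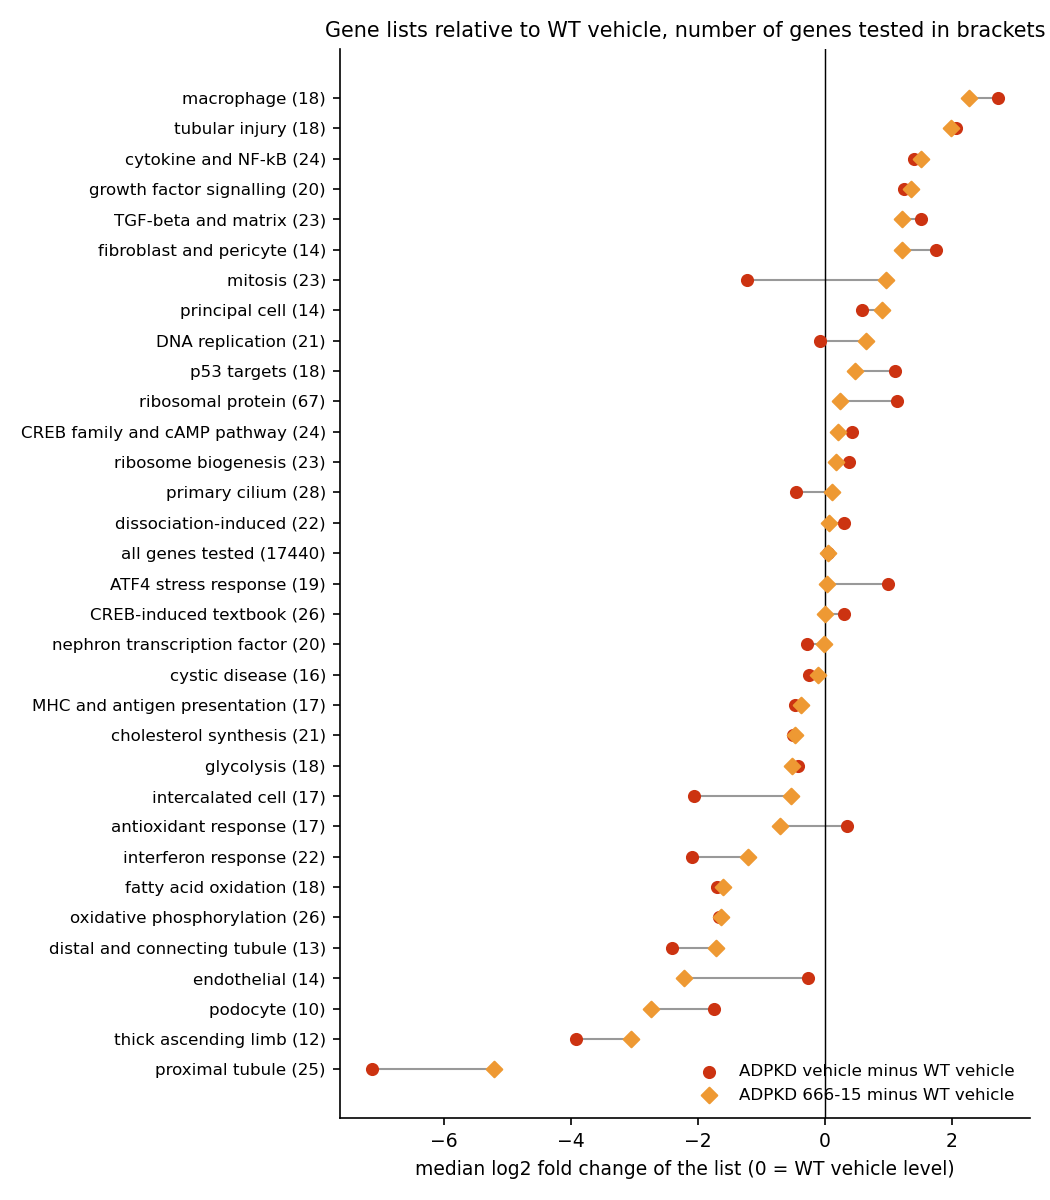
Median log2 fold change of each gene list with at least 10 tested genes in treated ADPKD against WT vehicle, beside ADPKD vehicle against WT vehicle, with 0 as the WT level; both share the WT vehicle libraries. Of these lists, proximal tubule (-5.20) and thick ascending limb (-3.05) genes stay furthest below WT, while endothelial genes lie at -2.22 with 666-15 and -0.274 on vehicle.

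Mitochondrial and fatty acid genes stayed low. All 26 oxidative phosphorylation genes were lower in treated ADPKD, with a median log2 fold change of -1.64 against -1.66 on vehicle, and 24 were classed short. Uqcrc1, a complex III subunit, was at 391 and 395 CPM in WT, 131 and 118 on vehicle and 144 and 156 with 666-15 (-1.39 ± 0.10). All 18 fatty acid oxidation genes were lower too (median -1.60, against -1.70 on vehicle). Cpt2, the carnitine palmitoyltransferase of the inner membrane, was at 62.4 and 59.4 CPM in WT, 11.9 and 10.6 on vehicle and 10.9 and 15.7 with 666-15. These genes are abundant in proximal tubule, whose summed markers were lower in the same libraries, and the part of that in the mitochondrial values was not tested. Of 22 interferon response genes, 17 were lower, none higher and 5 without a call (median -1.21, against -2.09 on vehicle).

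Cytokine, injury and matrix genes stayed high. Of 24 cytokine and NF-kB genes, 21 were higher in treated ADPKD and 2 lower (median 1.51, against 1.40 on vehicle). Of the 12 members short of WT, 3 had moved towards WT with 666-15 and 4 away. Over all genes, 1366 and 411 of the 4164 short genes had done so. Il11 averaged 5.16 CPM in WT, 303 on vehicle and 76.9 with 666-15. Csf1 averaged 219, 1023 and 405 CPM. Lif, a cytokine of the interleukin-6 family, was at 184 and 255 CPM in WT, 1782 and 2234 in ADPKD on vehicle and 3244 and 3460 with 666-15, so that treatment left it further from WT (3.93 ± 0.17, adjusted p = 6.40e-08). In WT mice 666-15 also raised Lif, to 1732 and 1397 CPM. Tnf was at 0.498 and 1.12 CPM in WT, 31.4 and 44.7 on vehicle and 58.6 and 63.1 with 666-15 (6.26 ± 0.34). Csf3, the granulocyte growth factor, was at 7.32 and 6.91 CPM in WT, 287 and 376 on vehicle and 454 and 534 with 666-15, with no call between the ADPKD groups (adjusted p = 0.102). Cxcl5, a neutrophil chemokine, rose from 0.149 and 0.236 CPM in WT to 20.2 and 32.9 in treated ADPKD (7.07 ± 1.56), and its class changed in 7 of 17 alternative fits. The summed macrophage markers were 0.0195% and 0.0176% of counts in WT, 0.0444% and 0.0519% on vehicle and 0.0357% and 0.0477% in treated ADPKD. Of these 18 markers, 16 were higher in treated ADPKD than in WT (median 2.26, against 2.73 on vehicle). Their part in the cytokine values was not tested.

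Of 18 tubular injury genes, 16 were higher and 2 lower (median 1.98, against 2.07 on vehicle). Krt19, a keratin of ductal epithelium, was at 20 and 15.7 CPM in WT, 874 and 928 on vehicle and 1088 and 1235 with 666-15 (6.02 ± 0.16). Lcn2, which encodes NGAL, was at 68.4 and 72.2 CPM in WT and 1726 and 2245 in treated ADPKD, with no call against ADPKD on vehicle (adjusted p = 0.667). Havcr1, which encodes KIM-1, had moved away from WT, from 12.7 and 12.4 CPM on vehicle to 30.4 and 37.6 with 666-15, beside 5.18 and 4.73 in WT. Outside this list, Muc4, a membrane mucin, was at 3.69 and 7.44 CPM in WT and 632 and 473 in treated ADPKD (6.65 ± 0.49). Of 23 TGF-beta and matrix genes, 17 were higher and 4 lower (median 1.22, against 1.51 on vehicle).

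Wnt7a, a Wnt ligand, went uncounted in untreated WT cells (0 in each library). It was at 249 and 203 CPM in ADPKD on vehicle and 87.3 and 79.8 CPM with 666-15, at least 1031-fold higher than WT with 3 counts over the WT group as the floor. The fall within ADPKD was called (-1.44, adjusted p = 6.69e-06), and the treated libraries stayed far above WT. Ctnnd2, a delta-catenin gene, and Scara3, a scavenger receptor gene, moved away from WT: Ctnnd2 was at 5.19 and 6.51 CPM on vehicle and 38.2 and 31.6 with 666-15, beside 0.448 and 0.118 in WT.

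Other genes stayed short of WT after a called fall with 666-15 within ADPKD. Serpina3n, a secreted serine protease inhibitor, was at 1.74 and 1.06 CPM in WT, 41.1 and 70.1 on vehicle and 3.12 and 4.07 with 666-15 (1.33 ± 0.37 from WT, adjusted p = 0.00857). Timp1, the tissue inhibitor of metalloproteinases, was at 4.43 and 2.66 CPM in WT, 56.9 and 85.6 on vehicle and 7.68 and 6.31 with 666-15 (0.97 ± 0.28, adjusted p = 0.0119). Both calls were lost when WT vehicle replicate 2 was left out (adjusted p = 0.0634 and 0.0934), and each also without 1 treated ADPKD library. Olfm2, one of the CRE promoters printed above, was at 0.946 and 1.18 CPM in WT, 64.7 and 40.4 on vehicle and 8.13 and 7.40 with 666-15 (2.87 ± 0.32). Mmp19, a metalloproteinase, fell from 50.7 and 88.3 CPM on vehicle to 9.31 and 11.5, beside 0.548 and 1.12 in WT. On the log2 scale the share of the vehicle difference left was 25.2% for Serpina3n, 22.4% for Timp1, 51.0% for Olfm2 and 57.2% for Mmp19.

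**Figure D4:**
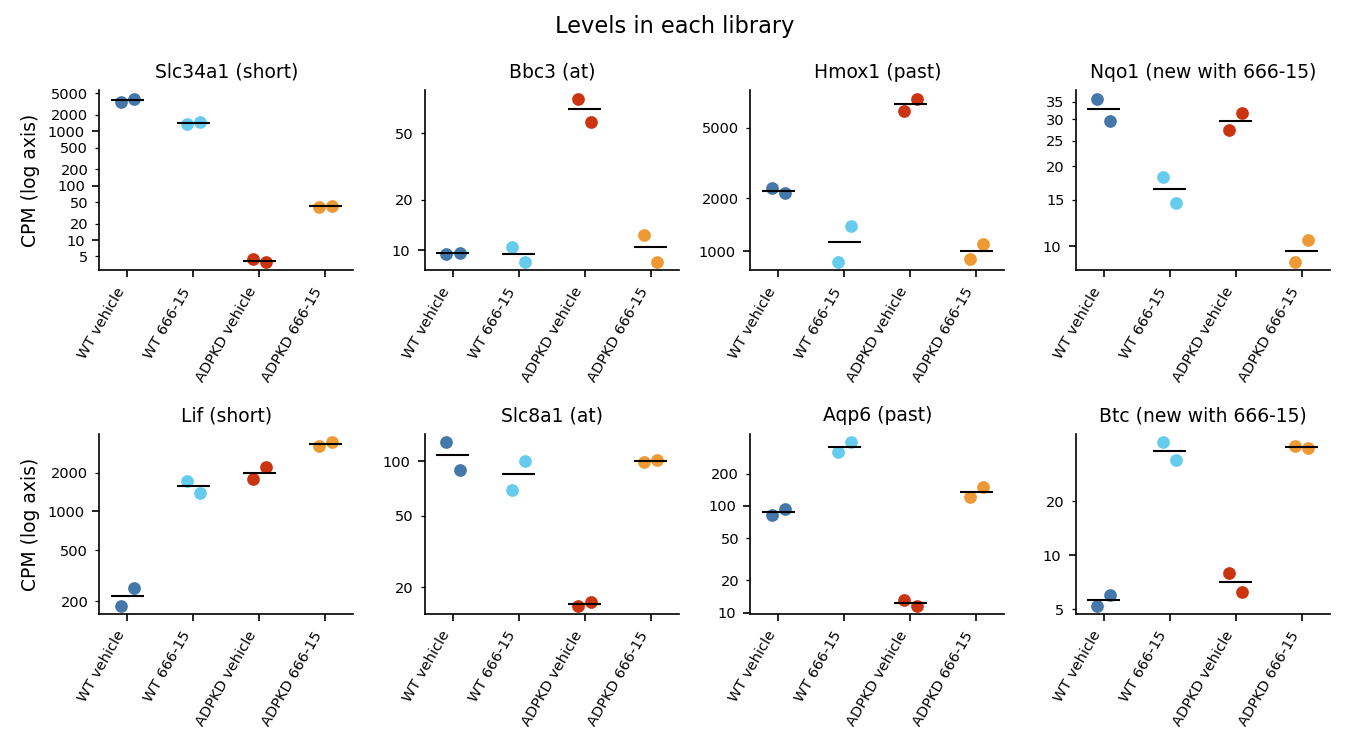
CPM in each library (log axis, 1 point per library, bar at the group mean) of genes short of, at and past the WT level and of 2 genes within 2-fold of WT on vehicle and different with 666-15. Slc34a1 stays near 41 CPM in treated ADPKD against 3501 and 3967 in WT, while Bbc3 and Slc8a1 lie at the WT level and Hmox1 below it.

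Genes at the WT level included single members of the p53 and ATF4 stress lists. Bbc3, which encodes the pro-apoptotic protein PUMA, was at 9.51 and 9.63 CPM in WT, 80.8 and 58.6 in ADPKD on vehicle and 12.4 and 8.55 with 666-15. The treated libraries bracketed the WT libraries, and the log2 fold change was 0.13 ± 0.22 (95% interval -0.33 to 0.60). With a trend on GC content removed, Bbc3 was classed short of WT, as were Slc8a1 and Slc26a7. Bax, a pore-forming apoptosis gene, averaged 30.7 CPM in WT, 92.3 on vehicle and 28.3 with 666-15. The p53 list was mixed: of 18 genes, 11 were higher in treated ADPKD, 4 lower and 3 had no call (median 0.473, against 1.11 on vehicle). Cdkn1a, which encodes the cell cycle inhibitor p21, was at 326 and 315 CPM in WT, 1338 and 1165 on vehicle and 454 and 437 with 666-15, still above both WT libraries (0.48 ± 0.10, adjusted p = 0.00148). Of 19 ATF4 stress response genes, 5 were higher, 5 lower and 9 without a call, beside 28.6% higher and 26.7% lower of all genes. By class 5 of the 19 were short of WT, 2 at it, 2 undecided and 1 past it. The members at it, Ddit4 and Trib3, averaged 145 and 42.5 CPM in treated ADPKD. Vegfa, the endothelial growth factor, was at 403 and 374 CPM in WT, 960 and 842 on vehicle and 343 and 297 with 666-15, below both WT libraries without passing the threshold (-0.28, adjusted p = 0.0516).

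Ribosomal protein genes were split around the WT level. Of 67, 66 were called higher in ADPKD on vehicle (median 1.13). In treated ADPKD 31 were still higher, 12 were lower and 24 had no call (median 0.241, and 0.192 with RLE scaling). By class 26 were short of WT, 19 at it and 4 past it. The summed share of counts was 1.73% and 1.74% in WT, 3.76% and 3.26% on vehicle and 1.9% and 2.11% with 666-15. These genes have many processed copies in the genome that share their sequence, so the count of any one of them is uncertain. Of 28 primary cilium genes, 10 were higher, 4 lower and 14 without a call (median 0.109, against -0.457 on vehicle). Over all genes tested, 28.6% were higher and 26.7% lower.

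Among genes at the WT level with a mean of at least 5 CPM, those with the largest vehicle difference were Nudt18, Bbc3 and Crip1 on the higher side and Tldc2, Slc26a7 and Ipcef1 on the lower side. Crip1 kept this class in 10 of 17 alternative settings, and Tldc2 and Ipcef1 in 11 of 17 each, turning undecided in the others. Nudt18, a nucleotide hydrolase, was at 6.57 and 5.91 CPM in WT, 57.9 and 53.5 on vehicle and 8 and 6.86 with 666-15. Fscn1, which encodes the actin bundler fascin and has a CRE printed above, was at 15.6 and 11.5 CPM in WT, 56.8 and 59.8 on vehicle and 14.1 and 11.1 with 666-15. Its treated libraries overlapped the WT ones.

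**Figure D5:**
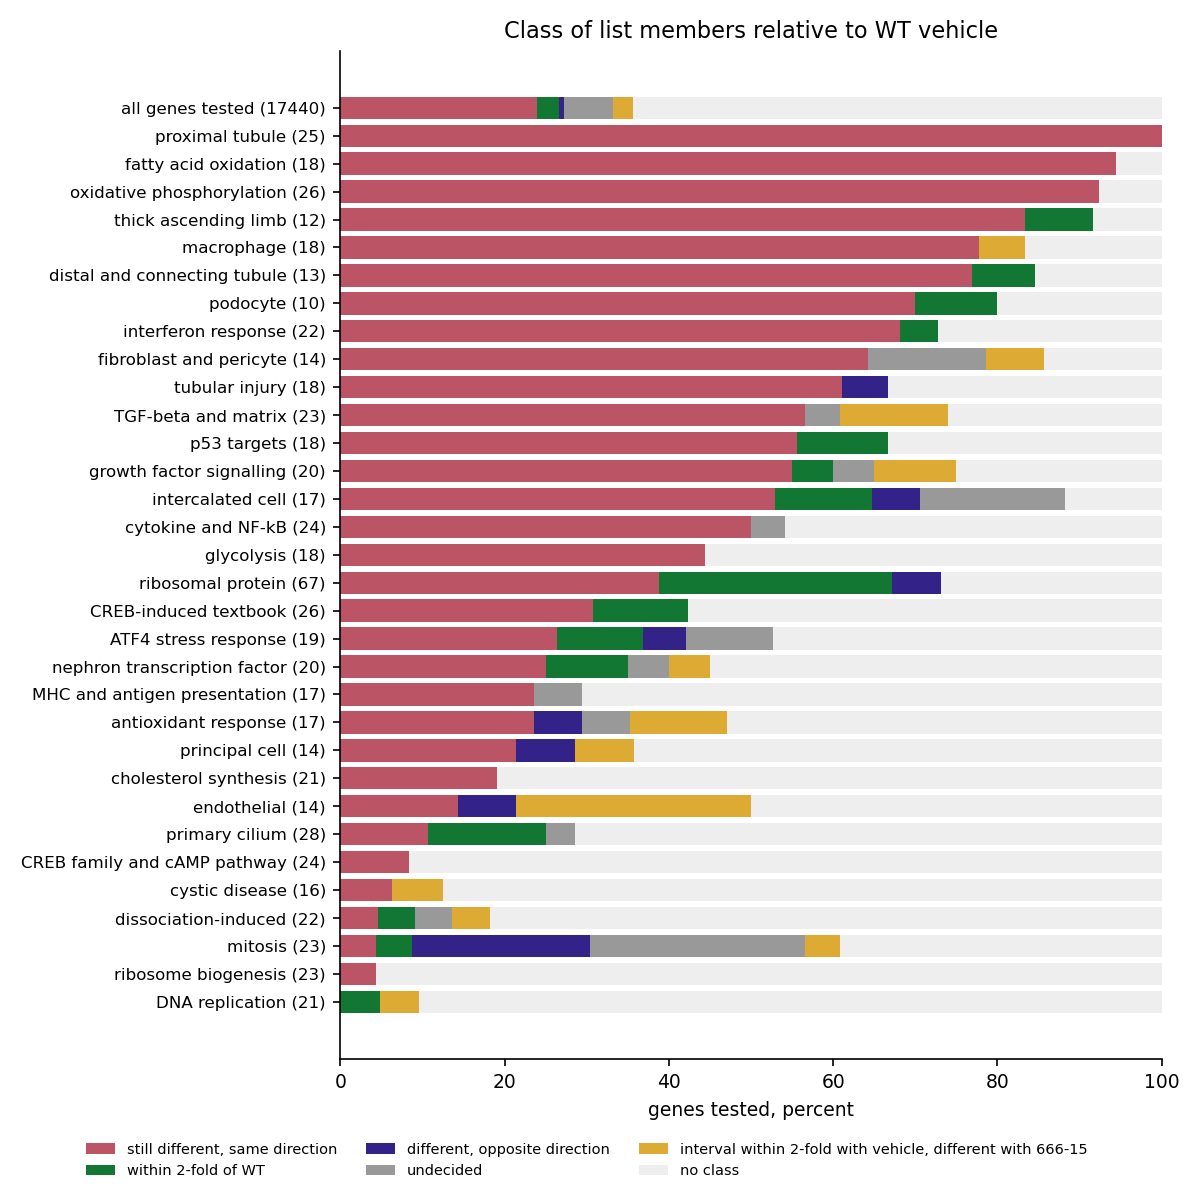
Percent of the tested genes of each list (at least 10 tested, number in brackets) that were short of, at, past or undecided against the WT level, and of genes with no call and a 95% interval within 2-fold on vehicle that were called at least 2-fold off with 666-15. All 25 proximal tubule genes are short of WT, 19 of 67 ribosomal protein genes are at it, and 5 of 23 mitosis genes are past it.

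Genes past the WT level were few. Of 53 that had been higher on vehicle and ended lower than WT, 29 were also lowered by 666-15 in WT mice and 0 raised, beside 2028 of all genes (11.6%) called lower in that comparison. Of 53 that had been lower and ended higher, 34 were raised in WT mice and 0 lowered, beside 2420 of all genes (13.9%) called higher. The effect of 666-15 differed between the genotypes for 42 of the genes that ended lower and 41 of those that ended higher, beside 4636 of all genes (26.6%). These comparisons share libraries with the class rule, so nothing is read from the counts. Hmox1, the heme-degrading enzyme of the antioxidant response, was at 2285 and 2128 CPM in WT, 6246 and 7311 on vehicle and 898 and 1096 with 666-15. Both treated libraries were below both WT libraries (-1.15 ± 0.21, adjusted p = 0.00261), and 666-15 brought it to 866 and 1398 CPM in WT mice. Procr, which encodes the endothelial protein C receptor, went from 155 and 234 CPM on vehicle to 15.8 and 14.3, beside 52.8 and 42.8 in WT (-1.67 ± 0.22). Lars2, the mitochondrial leucyl-tRNA synthetase, was at 29.4 and 27.5 CPM in WT, 15.6 and 9.17 on vehicle and 194 and 125 with 666-15 (2.48 ± 0.26), and at 342 and 329 CPM in WT on 666-15. Atp12a, a proton/potassium pump, was at 2.49 and 7.74 CPM in WT, 0.259 and 0.651 on vehicle and 13.5 and 14.3 with 666-15. It kept its class in 15 of 17 alternative settings and turned undecided when either treated ADPKD library was left out.

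Cell division genes were among those past WT. Of 23 mitosis genes, 12 were higher in treated ADPKD, 0 lower and 11 without a call (median 0.964, against -1.23 on vehicle), and 5 were past the WT level (Top2a, Cdk1, Cenpf, Kif11 and Cenpe). Top2a, the topoisomerase of dividing cells, was at 9.36 and 11.5 CPM in WT, 3.89 and 2.93 on vehicle and 24.0 and 23.7 with 666-15. Its log2 fold change was 1.19 ± 0.33 (adjusted p = 0.0107), and the call was lost without WT vehicle replicate 1 (adjusted p = 0.0863) or treated ADPKD replicate 1 (0.0529). Mki67 was at 20.2 and 24.7 CPM in WT and 38.9 and 41.1 in treated ADPKD, without overlap and without a call (0.83 ± 0.49, adjusted p = 0.204). Of 21 DNA replication genes, 12 were higher, 0 lower and 9 without a call (median 0.643, against -0.0738 on vehicle). The summed mitosis genes were 0.0130% and 0.0142% of counts in WT, 0.0130% and 0.0113% on vehicle and 0.0252% and 0.0240% with 666-15. WT libraries on 666-15 were at 0.00726% and 0.0133%, apart from each other. On vehicle 12 of the 23 genes were lower than WT and 3 higher. Kif23, the most abundant member on vehicle, was higher and short of WT. It averaged 19.96 CPM in WT, 52.67 on vehicle and 54.47 with 666-15. The sum on vehicle therefore does not show the fall of the 12 lower genes. In WT mice 666-15 gave no call for Top2a (-0.33, adjusted p = 0.537), and the difference in its effect between genotypes was called (3.13, adjusted p = 0.0013).

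Genes that were close to WT on vehicle and away from it with 666-15 included some endothelial markers. All 14 endothelial markers were lower in treated ADPKD (median -2.22, against -0.274 on vehicle), and 4 of them (Flt1, Cdh5, Pecam1 and Tek) had no call and an interval within 2-fold on vehicle. Pecam1, an endothelial adhesion molecule, was at 308 and 252 CPM in WT, 232 and 270 on vehicle and 81.8 and 64.1 with 666-15 (-1.94 ± 0.26, adjusted p = 0.000926). Flt1, the VEGF receptor whose CRE is printed above, was at 209 and 178 CPM in WT, 168 and 214 on vehicle and 64.0 and 55.6 with 666-15 (-1.69 ± 0.17). Kdr and Erg, also endothelial, stood -2.71 and -3.07 from WT in treated ADPKD, against -0.55 and -0.83 on vehicle. Kdr had no call on vehicle but an interval reaching beyond 2-fold, and Erg was called there. The summed endothelial markers were 0.205% and 0.179% of counts in WT, 0.139% and 0.172% on vehicle and 0.0469% and 0.0368% in treated ADPKD. Podocyte markers were mostly below WT on vehicle already. Of 10, 8 were lower there, beside 27.6% of all genes, and 9 were lower with 666-15 (median -2.73, against -1.74 on vehicle). Whether cells of these types were fewer or carried less RNA cannot be told apart.

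Antioxidant genes were also below WT with 666-15. Of 17, 12 were lower, 3 higher and 2 without a call (median -0.712, against 0.343 on vehicle). Nqo1, a quinone reductase and classic target of the factor NRF2, was at 35.9 and 29.5 CPM in WT, 27.3 and 31.7 on vehicle and 8.72 and 10.6 with 666-15 (-1.76 ± 0.18, adjusted p = 3.39e-06). The vehicle libraries overlapped WT and the treated libraries did not. In WT mice 666-15 took it to 18.3 and 14.5 CPM. Osgin1, another NRF2 target, was at 277 and 272 CPM in WT, 449 and 462 on vehicle and 64.8 and 56.4 with 666-15 (-2.18 ± 0.10). Mt2, a metallothionein, was at 18.1 and 15.8 CPM in WT, 20.5 and 14.5 on vehicle and 1.95 and 2.1 with 666-15 (-3.06 ± 0.41), and at 0.530 and 2.28 CPM in WT on 666-15.

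Among growth factor genes, 14 of 20 were higher and 2 lower in treated ADPKD (median 1.35, against 1.24 on vehicle). Btc, which encodes the EGF receptor ligand betacellulin, was at 5.23 and 6.02 CPM in WT, 7.94 and 6.24 on vehicle and 40.9 and 39.8 with 666-15 (2.84 ± 0.18, adjusted p = 4.65e-08). WT mice on 666-15 were at 42.7 and 33.8 CPM. Met, the hepatocyte growth factor receptor, was at 463 and 461 CPM in WT, 471 and 524 on vehicle and 1255 and 1356 with 666-15. Slc38a4, an amino acid transporter, was at 4.08 and 3.25 CPM in WT, 4.72 and 3.53 on vehicle and 29.8 and 36.6 with 666-15 (3.17 ± 0.30), with no call in WT mice. Trpv6, an epithelial calcium channel, was at 8.77 and 12 CPM in WT and 45.8 and 45.7 in treated ADPKD.

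CREB pathway genes were mixed. Creb1, the drug's target, was at 41.6 and 44.7 CPM in WT, 78.6 and 69.3 in ADPKD on vehicle and 53 and 54 with 666-15, above both WT libraries. Its log2 fold change was 0.31 ± 0.12 (adjusted p = 0.0355). This call was lost with RLE scaling (adjusted p = 0.0718) and without any 1 of the 4 compared libraries (adjusted p from 0.0883 to 0.222), and the value turned negative with the GC trend removed (-0.030, adjusted p = 0.863). Creb5, a related factor, was higher (21 and 20 CPM in WT, 65.5 and 65.8 in treated ADPKD). Of 26 textbook CREB-induced genes, 8 were higher, 7 lower and 11 without a call (median -0.003, against 0.294 on vehicle). These counts are near the share over all genes tested, 28.6% higher and 26.7% lower. The sign of that median changes with the setting, for example 0.122 with the GC trend removed. Areg, an EGF receptor ligand whose CRE is printed above, stayed at 19.7 and 20.8 CPM in treated ADPKD against 2.64 and 1.65 in WT (3.22 ± 0.28). Among the CREB-induced genes Fos, Nr4a3 and Per2 were at the WT level. Gnas, which encodes the stimulatory G protein alpha subunit, fell from 126 and 122 CPM on vehicle to 30.5 and 30.8, below WT at 67.1 and 66.2 (-1.12 ± 0.11).

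Pkd1, which encodes polycystin 1, was at 68.4 and 63.8 CPM in WT, 73.6 and 70.3 in ADPKD on vehicle and 48.9 and 38.5 with 666-15 (-0.60 ± 0.15, adjusted p = 0.00548, and 0.0777 without treated ADPKD replicate 2). Pkd2, which encodes polycystin 2, was at 185 and 208 CPM in WT and 216 and 210 in treated ADPKD, with no call (0.12, 95% interval -0.11 to 0.34). A count over a whole gene says nothing of a deletion of part of it. Pkhd1, which encodes fibrocystin, was at 213 and 211 CPM in WT, 127 and 114 on vehicle and 343 and 319 with 666-15 (0.64 ± 0.15). Bicc1, an RNA-binding cystic disease gene, was at 131 and 151 CPM in WT, 142 and 122 on vehicle and 306 and 296 with 666-15. Both genes lay above WT in each treated library.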

How the data were processed

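RNA-seq of 8 libraries in 4 groups of 2 was used, labelled as DBA-positive mouse kidney cells, with whole kidney RNA also named in the labels' extraction text. HISAT2 2.1.0, featureCounts 1.6.0, DESeq2 and the build mm10 are named in the submitters' processing notes, with no order or role. The deposited values are raw read counts per gene. For strand, annotation version and multi-mapping, settings are not given in the sources used here. In all, 37 mitochondrial rows hold 0 counts. The count table names the vehicle columns without the treatment, and these were matched to the vehicle samples because the other columns carry the inhibitor label.

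Counts were tested with edgeR 4.0.16 (R 4.3.3, limma 3.58.1): TMM scaling, filterByExpr (minimum count 10, total 15), and a robust quasi-likelihood fit of 4 group means over all 8 libraries, which left 4 residual degrees of freedom. P-values are two-sided and Benjamini-Hochberg adjusted over the 17440 genes tested; the threshold is 0.05. Standard errors and 95% Wald intervals come from this fit, and printed CPM are TMM-scaled. The procedure was run on simulated data in which far fewer genes differed than here, all of them with high counts. That run therefore does not give the error rates of the calls and classes in these data. DESeq2 1.42.0, RLE scaling, other filters, GC and length corrections and leaving out each library were the alternatives. The members and lists were chosen with earlier results of these data known. Named genes were the extremes of the comparison (12 a side), 8 per class and direction with a mean of at least 5 CPM, 8 a side of those new with 666-15, up to 4 per list by p, and Creb1, Pkd1 and Pkd2; other list members were named after their values were seen. The replicate numbers do not pair the samples (correlations of deviations -0.0371 to 0.0806 over 11199 genes). Coordinates and GC content come from GENCODE M21 (GRCm38), matched by symbol for 53642 rows (97%); promoters come from RefSeq GRCm38.p6. Some genes are not reported here. Precision is limited by 2 libraries a group.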

Additional observations from a re-analysis of the deposited data

Results flagged for a closer look

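The 16 genes past the WT level that were picked for the largest difference from WT, 8 a side, were looked at again. For 14 of these 16 (all but Lars2 and Asb4), the effect of 666-15 differed between ADPKD and WT mice. This was judged by the interaction term of the same edgeR fit (log2 effect in ADPKD minus log2 effect in WT). Of the genes that ended below WT, Procr differed by -2.05, Mest by -2.02, Hmox1 by -1.80, Fxyd5 by -1.66, Rps28 by -1.16, Fbxw4 by -1.13, Rpl23a by -0.985 and Rps10-ps2 by -0.914. Of those that ended above WT, Dnah7b differed by 3.30, Atp12a by 3.14, Top2a by 3.13, Adamts16 by 1.9, Il17rb by 1.40 and Gcnt4 by 0.810. Adjusted p-values ran from 3.61e-05 (Dnah7b) to 0.0457 (Fbxw4). Mest, Rps28 and Fbxw4 held the class past WT in 11 of 17 alternative settings each. The genes were chosen by values from the same libraries, and 1 of the 2 treated WT libraries differs in sex from the other 7. Over the genes matched to a GC content, the log2 effect of 666-15 in ADPKD fell with GC content (Spearman correlation -0.354). In WT that correlation was 0.0155. The part of this trend in the differences between genotypes was not tested. The ribosomal genes and Rps10-ps2, a pseudogene, share reads with close copies.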

How the results depend on the processing

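The count of genes past the WT level was 106, and 50 to 122 when single libraries were left out (50 without WT vehicle replicate 1, 54 without WT vehicle replicate 2, 60 without treated ADPKD replicate 2), 47 at an adjusted p below 0.01, 401 with no fold minimum on the vehicle difference, and 68 among genes of at least 5 CPM, an alternative chosen after seeing the data. Undecided genes numbered 1037, and 706 to 1667 without single libraries (1660 and 1667 without treated ADPKD replicates 1 and 2), 212 with a filter of 5 CPM in 2 libraries and 97 among genes of at least 5 CPM. Genes at the WT level numbered 482, and 171 with an interval within 1.5-fold and 1749 with no fold minimum. Genes short of it numbered 4164, and 6583 with no fold minimum. Called genes numbered 9649, 5418 at 2-fold or more (2226 higher), and 7506 to 10019 without single libraries. With the GC trend removed 80 genes were past WT, 68 of them the same. Creb1 reversed to -0.030 with the GC trend removed. The replicate block, for numbers that do not pair the samples, called 9547 genes and left each class count within 1.5 times. Undecided genes had a median of 1.37 CPM, a level at which depth limits the intervals. The cause of these shifts was not tested, beyond fewer samples or genes.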

Other observations

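Cholesterol synthesis and glycolysis genes, which no comparison above describes, were mixed. Of 21 cholesterol synthesis genes, 6 were higher and 9 lower in treated ADPKD than in WT on vehicle (median log2 fold change -0.47). Of 18 glycolysis genes 6 were higher and 12 lower (median -0.51). Over all genes tested, 28.6% were higher and 26.7% lower. Of 8 red cell markers, 6 were tested and all 6 were lower in treated ADPKD, with a median of -3.10. Red cell markers summed to 0.00909% and 0.00874% of counts in WT on vehicle and 0.00106% and 0.00172% in treated ADPKD. Urothelium markers summed to 0.0244% and 0.0194% in WT on vehicle and 0.00557% and 0.00517% in treated ADPKD, with 2 of 8 tested genes called lower, beside 26.7% of all genes. Krt20 carried most of that sum, at 191 CPM on average in WT and 39.7 in treated ADPKD, while Upk3b was at 5.51 and 10.4 CPM without a call. Slc4a1, which is in both the red cell and the intercalated cell lists, carried most of the red cell sum. It averaged 62.2 CPM in WT on vehicle and 12.2 in treated ADPKD, beside 12.9 and 1.12 CPM for Hba-a1, the next highest member.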
